A study of Mus musculus with 21 samples.

Results

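The genes described here are 30 genes of the tricarboxylic acid (TCA) cycle and of the entry of pyruvate into it. They were matched by gene symbol in the 2 deposited count tables, 1 for brown adipose tissue (BAT) and 1 for the white part of the vastus muscle (WV). All 30 of 30 symbols were found among 28541 gene models, each with 1 model, and all 30 passed the filter on low counts in every fit. They hold 16 enzyme genes of the cycle and its side branches, 4 subunits of pyruvate dehydrogenase, pyruvate carboxylase, 4 kinases and 2 phosphatases of pyruvate dehydrogenase, and 3 genes of the malate-aspartate shuttle. The rule takes them by symbol, and the list was drawn up with earlier results of these data known.

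The study compared whole BAT and WV of BATI4KO mice with those of littermates that carried the floxed gene without the knockout. BATI4KO stands, from knowledge of the mouse line and not from the labels, for deletion of the transcription factor gene Irf4 in brown adipocytes with a Cre under the Ucp1 promoter, so other cells of the fat and the muscle keep the gene. There were 5 floxed and 6 BATI4KO libraries of the fat, and 5 of each genotype of the muscle. The labels give neither age, sex nor treatment. They do not say whether every library comes from its own mouse, and the p-values below then cover only library-to-library spread, which may be technical.

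The TCA cycle oxidises acetyl groups to carbon dioxide in the mitochondrial matrix and passes the electrons to the respiratory chain. Pyruvate enters as acetyl-CoA through pyruvate dehydrogenase, which kinases switch off and phosphatases switch on, or as oxaloacetate through pyruvate carboxylase. Brown fat burns fatty acids and glucose through this cycle for heat, white muscle relies largely on glycolysis, and the malate-aspartate shuttle carries electrons of cytosolic NADH into mitochondria.

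Sequencing depth ranged from 20219479 to 41773148 counts among BAT libraries and from 30479508 to 40328627 among WV libraries. Irf4 was at 18.3 to 43.5 CPM (counts scaled to a common library size) in floxed BAT and at 4.91 to 5.94 CPM in BATI4KO BAT, and Ucp1 was at 1015 to 5834 CPM in BAT and at most 0.41 CPM in WV. Library titles give floxed as FX and BATI4KO as KO. In BAT, FX_1, FX_2, FX_3, KO_1, KO_2 and KO_3 carry a short number, while FX_5497, FX_5503, KO_5414, KO_5492 and KO_5494 and all WV libraries carry a long tag. What the 2 title styles stand for is not given in the labels, and Rmrp, a short noncoding RNA, was at 221 to 967 CPM with short numbers and at 8.82 to 23.9 CPM with long tags. By edgeR, 15 of the 30 genes differed between the styles, against 31.3% of all genes tested, 14 of them lower with short numbers (16.4% of all genes) and 1, Pdk2, higher (14.9%), so the style was kept as a term in the fits. The summed level of 18 skeletal muscle genes, none at 0 in any group, was 159 to 1221 CPM in floxed BAT, 633 to 18499 CPM in BATI4KO BAT, with the highest in KO_3, and 296180 to 672685 CPM in WV.

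CPM values were scaled by TMM, which aligns the bulk of genes between libraries, over all 21 libraries, and RPKM values are the same levels per kilobase of gene length. Values by library follow the order FX_1, FX_2, FX_3, FX_5497, FX_5503 in floxed BAT and KO_1, KO_2, KO_3, KO_5414, KO_5492, KO_5494 in BATI4KO BAT. In WV the order is FX_5413, FX_5415, FX_5497, FX_5503, FX_5514 and KO_5492, KO_5493, KO_5494, KO_5495, KO_5496. Together the 30 genes took 2.15% to 2.63% of the counts in floxed BAT and 1.96% to 2.59% in BATI4KO BAT. In WV they took 0.721% to 1.01% in floxed and 0.653% to 1.08% in BATI4KO libraries. No WV library reached the share of any BAT library, as a share of raw counts. By mean log2 CPM on the TMM scale the tissues overlapped, at 7.77 to 8.41 in floxed BAT and 7.46 to 8.19 in floxed WV. In BATI4KO libraries this mean was 7.65 to 8.27 in BAT and 7.55 to 8.12 in WV.

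**Figure D1:**
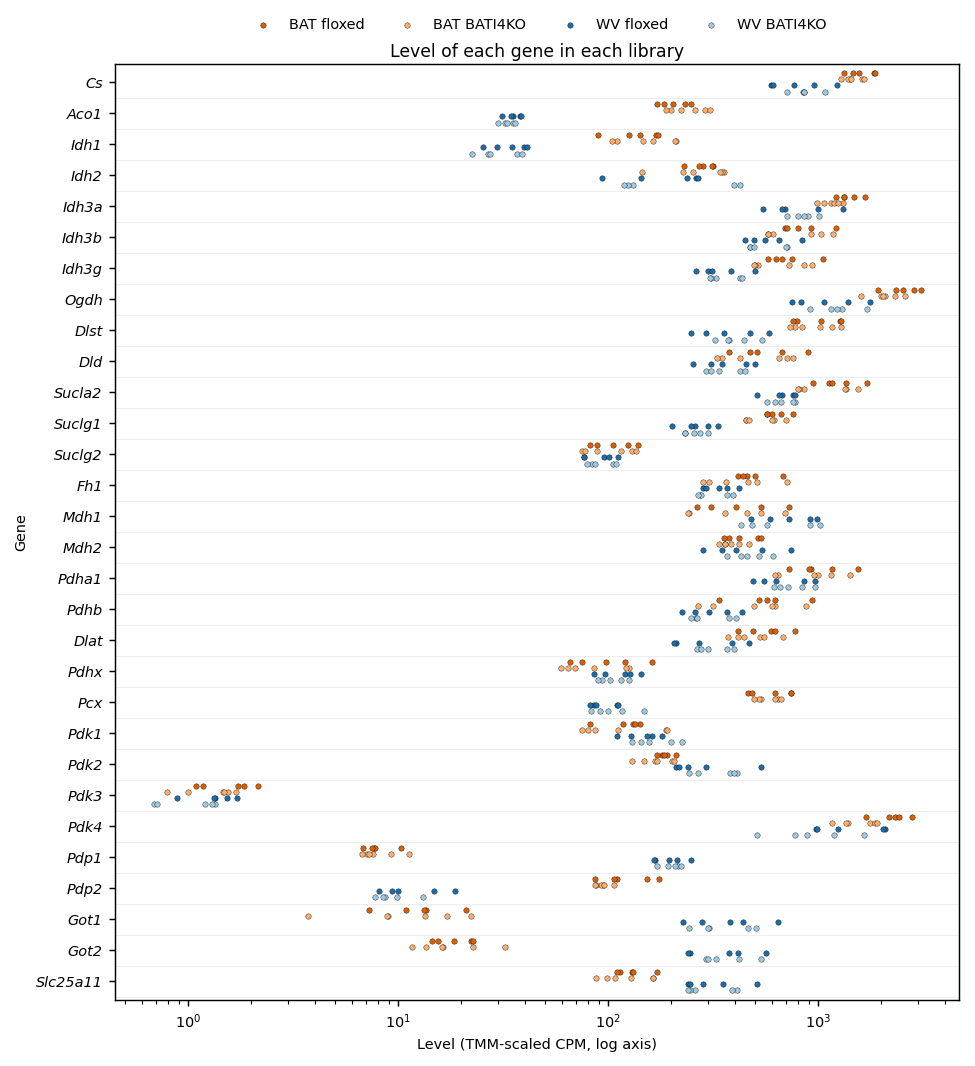
Level of each of the 30 genes in each library, as TMM-scaled CPM on a log axis, with 1 point per library coloured by tissue and genotype. The points of the 2 genotypes overlap for every gene, while Got1, Got2, Pdp1 and Pdp2 lie far apart between BAT and WV.

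The proximal promoters of 4 of these genes are printed. The levels of Got1, Got2 and Pdp2 differed most between the tissues together with Pdp1. Pdk4 had the highest mean level per length of the 30 genes in floxed BAT and in floxed WV, though not in every library. Each window runs from 250 bases before to 50 bases after the RefSeq start in build GRCm38.p6, which is not the build of the counts, on the gene's own strand. The windows are chr19:43524556-43524855 on the minus strand for Got1, chr8:95888352-95888651 on the minus strand for Got2, chr8:104591222-104591521 on the plus strand for Pdp2 and chr6:5496229-5496528 on the minus strand for Pdk4. Capitals mark matches to the motifs searched, which in these windows are an E-box (CAGCTG) and a TATA box (TATAAA) read on the other strand, both in Got2.
Got1: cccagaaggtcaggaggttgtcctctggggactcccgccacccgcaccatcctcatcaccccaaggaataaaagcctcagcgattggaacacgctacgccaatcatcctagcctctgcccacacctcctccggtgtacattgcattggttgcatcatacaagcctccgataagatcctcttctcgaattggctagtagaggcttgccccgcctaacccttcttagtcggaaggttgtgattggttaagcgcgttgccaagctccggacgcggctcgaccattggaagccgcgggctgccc
Got2: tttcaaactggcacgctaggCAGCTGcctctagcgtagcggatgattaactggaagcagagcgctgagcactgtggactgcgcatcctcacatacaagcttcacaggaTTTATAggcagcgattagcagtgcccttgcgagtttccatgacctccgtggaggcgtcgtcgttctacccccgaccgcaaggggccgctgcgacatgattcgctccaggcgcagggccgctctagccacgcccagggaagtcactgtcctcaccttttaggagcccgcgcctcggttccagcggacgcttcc
Pdp2: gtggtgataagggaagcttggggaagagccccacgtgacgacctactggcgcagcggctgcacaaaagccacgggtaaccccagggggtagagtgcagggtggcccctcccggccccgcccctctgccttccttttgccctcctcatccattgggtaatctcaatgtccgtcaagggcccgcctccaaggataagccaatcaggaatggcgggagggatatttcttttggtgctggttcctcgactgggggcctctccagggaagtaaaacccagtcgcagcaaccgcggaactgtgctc
Pdk4: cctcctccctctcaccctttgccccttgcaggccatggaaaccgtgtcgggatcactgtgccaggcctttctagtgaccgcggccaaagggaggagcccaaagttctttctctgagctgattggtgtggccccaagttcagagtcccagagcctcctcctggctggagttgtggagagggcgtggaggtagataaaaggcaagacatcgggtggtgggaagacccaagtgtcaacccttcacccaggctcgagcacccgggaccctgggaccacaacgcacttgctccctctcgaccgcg

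RefSeq promoters were matched for 28 of the 30 genes, as 37 windows, and Idh3a and Pdp1 had none in the table. The 37 windows held a median of 21 CpG dinucleotides and 60.7% GC, against 7 and 52.7% over all 32851 windows of the same length. On both strands, the motif of the respiratory gene regulator NRF1 was in 2 of 37 windows (5.41%, against 4.6% of all windows), in Dld and Sucla2, and that of GABPA (CCGGAAGT) in 1 (2.7% against 3.89%), in Dlst. The CREB motif (TGACGTCA) was in 4 windows (10.8% against 1.79%), 1 of Mdh2 and 3 overlapping windows of Ogdh. Those 3 windows hold the same single site, so the 10.8% counts it 3 times and comes from 2 genes. CAGCTG was in 6 windows of Dld, Got2, Pcx, Pdk1 and Slc25a11 (16.2% against 16.3%), TATAAA in 1 (2.7% against 13.6%) and the interferon regulatory factor motif in 1, of Suclg2 (2.7% against 3.44%). No window held the motif of the estrogen-related receptors (TNAAGGTCA, 1.28% of all), the direct-repeat motif of PPAR (0.0396%) or the motif of the muscle factor MEF2 (3.69%). These matches describe letters in the windows and not bound sites, and the matches in Got2 did not overlap each other.

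Between the tissues, most genes of the cycle had higher levels in brown fat, while the 3 genes counted here as malate-aspartate shuttle had higher levels in muscle. In floxed mice 23 of 30 genes differed between BAT and WV (65.8% of all 16632 genes tested), 18 higher in BAT (34.1% of all genes) and 5 lower (31.7%). In BATI4KO mice 23 of 30 also differed (70.5%), 18 higher (37.4%) and 5 lower (33.1%). The same 18 and 5 genes passed in both genotypes. With library totals alone as the scale the split was 23 higher (57% of all genes) and 3 lower (15.9%) in floxed mice and 25 (68.3%) and 3 (13.8%) in BATI4KO mice. The test was edgeR's quasi-likelihood test with Benjamini-Hochberg adjustment over all genes and a threshold of 0.05. The median log2 difference of BAT minus WV was 0.90 over the 30 genes in floxed mice, against 0.11 over all genes, and 0.67 in BATI4KO mice, against 0.14. With library totals alone as the scale these all-gene medians rose to 0.79 and 1.09, so differences near these sizes depend on the scaling. Log2 differences are set at the level of the long-tag BAT libraries, because WV has only long tags. The 4 tags FX_5497, FX_5503, KO_5492 and KO_5494 occur in both tissues and may mark the same mice, which the labels do not say. With those 8 libraries alone and the tag as a replicate block, Pdk2 no longer passed in floxed mice, at -0.41, nor in BATI4KO mice Idh3a, Suclg2, Fh1 and Pdha1, at 0.68, 0.44, 0.55 and 0.53 (edgeR adjusted p = 0.0721, 0.066, 0.0569, 0.0853 and 0.132), while Pdk1 passed in BATI4KO mice, at -0.72 (edgeR adjusted p = 0.0062). In whole tissue, fewer cells of a type and less RNA per cell cannot be told apart.

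**Figure D2:**
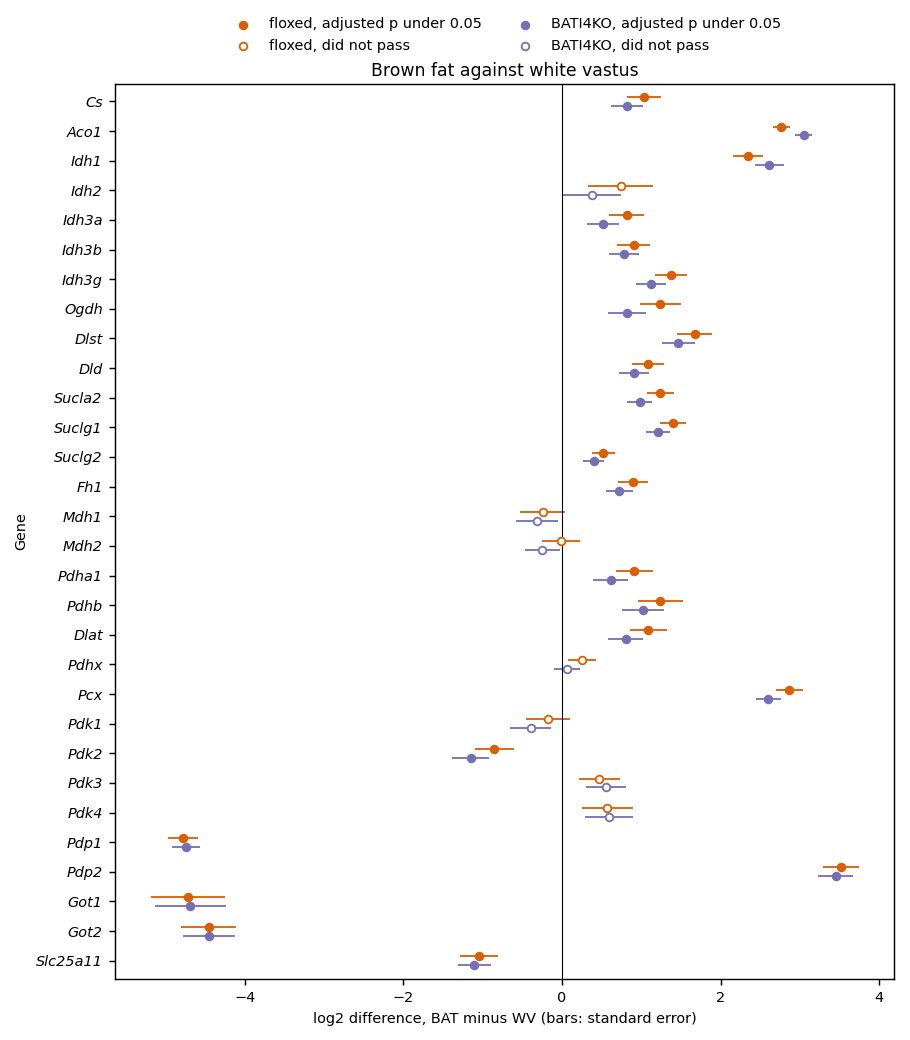
Log2 difference of each gene between BAT and WV (BAT minus WV, with the standard error as bars), in floxed and in BATI4KO mice. Filled points had an adjusted p under 0.05 in edgeR's test and open points did not; Pdp2 at 3.52 and Pdp1 at -4.78 in floxed mice mark the 2 ends of the range.

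At the head of the cycle, citrate synthase (Cs), which joins acetyl-CoA to oxaloacetate, was higher in BAT. Its levels in the 5 floxed BAT libraries were 1844, 1461, 1330, 1564 and 1870 CPM, and in the 5 floxed WV libraries they were 1231, 595, 769, 612 and 952 CPM. All 5 BAT libraries lay above all 5 WV libraries. The difference was 1.03 on the log2 scale (SE 0.21, edgeR adjusted p = 0.000242), and in BATI4KO mice it was 0.82 (SE 0.20, edgeR adjusted p = 0.00101). Aco1, the cytosolic aconitase that doubles as an iron-regulatory protein, was at 203, 171, 185, 233 and 248 CPM in floxed BAT and at 38.2, 35.3, 34.4, 31.1 and 38.5 CPM in floxed WV. BAT exceeded WV by 2.77 on the log2 scale (SE 0.11, edgeR adjusted p = 7.01e-15), with no overlap, and in BATI4KO mice by 3.05 (SE 0.10). Groups did not overlap for 10 genes higher (26.9% of all genes) and 4 lower (24.9%) in floxed BAT, and for 9 higher (29.1%) and 5 lower (27.2%) in BATI4KO BAT.

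Of the 5 isocitrate dehydrogenase genes 4 were higher in BAT. Idh1, the cytosolic NADP enzyme, was at 126, 89.1, 142, 169 and 172 CPM in the floxed BAT libraries and at 34.7, 29.7, 39.8, 25.3 and 40.8 CPM in the floxed WV libraries. The groups did not overlap, at a log2 difference of 2.35 (SE 0.19, edgeR adjusted p = 6.77e-10). Idh2, the mitochondrial NADP enzyme, was at 229 to 316 CPM in floxed BAT and 93.2 to 266 CPM in floxed WV, and its log2 difference of 0.74 did not pass (SE 0.41, edgeR adjusted p = 0.119). With library totals alone as the scale Idh2 passed, at 1.46 in floxed and 1.30 in BATI4KO mice (edgeR adjusted p = 0.00352 and 0.00311). Per length, Idh1 made up 26.3% ± 5.57 of the RPKM sum of both NADP genes in floxed BAT (SD, n = 5) and 11.8% ± 2.94 in floxed WV (SD, n = 5).

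All subunits of the NAD enzyme that works in the cycle itself were higher in BAT, Idh3a by 0.82, Idh3b by 0.90 and Idh3g by 1.37 on the log2 scale in floxed mice (edgeR adjusted p = 0.00272, 0.000542 and 5.17e-06). Idh3g is a regulatory subunit, and of these only Idh3g separated the groups completely. Its share of the RPKM sum of the 3 subunits was 32.9% ± 2.0 in floxed BAT and 27.0% ± 2.18 in floxed WV (SD, n = 5 each). In BATI4KO mice the difference of Idh3a was 0.51 (edgeR adjusted p = 0.0302), and it no longer passed when KO_5492 or KO_5494 of BAT or KO_5493 or KO_5494 of WV was left out, at 0.48, 0.51, 0.49 and 0.46. Without the title style term, Idh3b was at 0.51 in floxed mice and 0.50 in BATI4KO mice and did not pass (edgeR adjusted p = 0.0546 and 0.0518). Exons of Idh3b overlap those of Nop56 on the other strand in the annotation used, and the strand used in counting is not given in the sources used here.

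All 3 genes of the oxoglutarate dehydrogenase complex were higher in BAT. Ogdh, its first component, was at 1932 to 3088 CPM in floxed BAT and 751 to 1764 CPM in floxed WV, a log2 difference of 1.24 without overlap (SE 0.26, edgeR adjusted p = 0.000271). Dlst, the succinyl-transferring core, was at 1026, 790, 757, 1275 and 1285 CPM in the floxed BAT libraries and at 584, 249, 356, 293 and 472 CPM in the floxed WV libraries. It also did not overlap, at 1.67 (SE 0.23, edgeR adjusted p = 1.2e-06). Dld, the dihydrolipoamide dehydrogenase shared with pyruvate dehydrogenase, was at 377 to 899 CPM against 254 to 500 CPM, which overlap, with a log2 difference of 1.09 (SE 0.20, edgeR adjusted p = 7.38e-05). In BATI4KO mice the difference of Dld was 0.91, and without the title style term it was 0.55 and did not pass (edgeR adjusted p = 0.0522).

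Succinyl-CoA synthetase, the step that makes ATP or GTP directly, was also higher in BAT. Suclg1, the shared alpha subunit, was at 570 to 759 CPM in floxed BAT and 201 to 334 CPM in floxed WV (log2 difference 1.4, SE 0.16, edgeR adjusted p = 1.24e-07). Sucla2, the beta subunit of the ATP-forming enzyme, was at 941 to 1710 CPM against 509 to 778 CPM (1.24, SE 0.17, edgeR adjusted p = 1.69e-06), and neither gene overlapped between the tissues. Suclg2, the beta subunit of the GTP-forming enzyme, differed by 0.52 (SE 0.14, edgeR adjusted p = 0.0024), with overlap. Without the title style term Suclg2 was at 0.20 in floxed and 0.14 in BATI4KO mice and did not pass (edgeR adjusted p = 0.325 and 0.451). Sucla2 was the main beta subunit in both tissues, at 92.5% ± 0.605 of the RPKM sum of both beta subunits in floxed BAT and 88.5% ± 1.0 in floxed WV (SD, n = 5 each), and the shares did not overlap.

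At the end of the cycle 1 of 3 genes passed. Fh1, fumarase, was 0.90 higher in floxed BAT on the log2 scale (SE 0.19, edgeR adjusted p = 0.000265). Mdh2, the mitochondrial malate dehydrogenase of the cycle, was at 357 to 536 CPM in floxed BAT and 283 to 741 CPM in floxed WV. Its log2 difference of -0.01 did not pass (SE 0.24, edgeR adjusted p = 0.976), and with library totals alone as the scale it was 0.73 and passed (edgeR adjusted p = 0.00252). Mdh1, the cytosolic enzyme that also serves the shuttle, was at 264 to 723 CPM in floxed BAT and 478 to 988 CPM in floxed WV, and at -0.24 on the log2 scale it did not pass (SE 0.28, edgeR adjusted p = 0.46). Mdh1 was 0.92 lower with short numbers than with long tags in BAT, and without the title style term its BAT minus WV difference was -0.74 in floxed mice and passed (edgeR adjusted p = 0.0453). Per length, Cs was at 1.67 ± 0.175 times the RPKM of Mdh2 in floxed BAT (SD, n = 5), from 1.58 to 1.99, and at 0.832 ± 0.0776 times in floxed WV (SD, n = 5), from 0.753 to 0.953, so every floxed BAT library had more Cs than Mdh2 and every floxed WV library less.

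Of pyruvate dehydrogenase, which makes acetyl-CoA from pyruvate, 3 of 4 subunit genes were higher in BAT. The catalytic subunits Pdha1 and Pdhb differed by 0.91 and 1.24 on the log2 scale in floxed mice (edgeR adjusted p = 0.00158 and 0.000676), and the acetyl-transferring core Dlat by 1.09 (edgeR adjusted p = 0.00038), all with overlap. Pdhx, which holds the dihydrolipoamide dehydrogenase in the complex, was at 65.5 to 161 CPM in floxed BAT and 85.1 to 143 CPM in floxed WV, and its difference of 0.25 did not pass (edgeR adjusted p = 0.211). With upper-quartile scaling Pdhx reached 0.37 and passed (edgeR adjusted p = 0.0446), and with library totals alone it passed at 0.96 in floxed and 0.99 in BATI4KO mice (edgeR adjusted p = 4.58e-05 and 1.16e-05). In BATI4KO mice Pdha1 differed by 0.61 (edgeR adjusted p = 0.0157), and by 0.52 without KO_5414 of BAT (edgeR adjusted p = 0.0604) and 0.33 without the title style term (edgeR adjusted p = 0.217), so this call was lost.

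Pcx, pyruvate carboxylase, refills the cycle with oxaloacetate and serves fat synthesis in adipocytes. It was at 620, 461, 483, 738 and 743 CPM in the floxed BAT libraries, and at 534, 521, 497, 642, 668 and 621 CPM in the BATI4KO BAT libraries. In the floxed WV libraries it was at 85.3, 82.2, 87.1, 110 and 111 CPM, and in BATI4KO WV at 82.5 to 148 CPM. Every BAT library was above every WV library, with a log2 difference of 2.87 in floxed mice (SE 0.17, edgeR adjusted p = 3.9e-12) and 2.60 in BATI4KO mice (SE 0.16, edgeR adjusted p = 6.97e-12). Per length, Cs exceeded Pcx 4.09 ± 0.617 times in floxed BAT and 13.5 ± 5.03 times in floxed WV (SD, n = 5 each).

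The kinases Pdk1 to Pdk4 phosphorylate pyruvate dehydrogenase and so switch it off. Pdk4, which is known to rise with fasting and fatty acid use, was at 1689, 2183, 2805, 2324 and 2425 CPM in the floxed BAT libraries. In the floxed WV libraries it was at 975, 989, 2082, 1248 and 2025 CPM. The 2 groups overlap, since FX_5497 and FX_5514 of WV were above FX_1 of BAT, and the log2 difference of 0.57 did not pass (SE 0.32, edgeR adjusted p = 0.126). In BATI4KO mice it was 0.59 (SE 0.31, edgeR adjusted p = 0.0895), and it passed at 0.79 with upper-quartile scaling (edgeR adjusted p = 0.0215) and at 0.85 without KO_5495 of WV (edgeR adjusted p = 0.0156). Without the title style term it also passed there, at 0.64 (edgeR adjusted p = 0.0413), and with library totals alone as the scale it passed in both genotypes, at 1.27 and 1.59 (edgeR adjusted p = 0.000711 and 3.13e-05).

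Pdk2, the kinase found in most tissues, was at 210, 190, 180, 185 and 171 CPM in the floxed BAT libraries and at 532, 209, 239, 217 and 292 CPM in the floxed WV libraries. Its level was lower in BAT, at -0.85 on the log2 scale (SE 0.25, edgeR adjusted p = 0.00462), with a small overlap between FX_1 of BAT and FX_5415 of WV, but with library totals alone as the scale it was at -0.10 and did not pass (edgeR adjusted p = 0.631). Without FX_5413 of WV, which had the highest level, the difference was -0.54 and still passed (edgeR adjusted p = 0.0131). In BATI4KO mice the groups did not overlap, at -1.15 (SE 0.23, edgeR adjusted p = 0.000166), but with library totals alone Pdk2 was at -0.16 and did not pass (edgeR adjusted p = 0.392). Pdk1, a target of hypoxia signalling, and Pdk3, which was rare at 0.881 to 2.15 CPM in floxed libraries, did not pass, with floxed log2 differences of -0.18 and 0.47 (edgeR adjusted p = 0.593 and 0.118). With library totals alone Pdk3 passed, at 1.12 in floxed and 1.47 in BATI4KO mice (edgeR adjusted p = 0.0045 and 0.000217). In BATI4KO mice Pdk3 also passed at 0.73 with upper-quartile scaling and 0.58 with a filter of 1 CPM (edgeR adjusted p = 0.0184 and 0.0427). It passed there by limma voom too, at 0.59 (adjusted p = 0.0394). The same held by edgeR when FX_3 or KO_2 of BAT, or FX_5413, KO_5492 or KO_5494 of WV was left out. Per length, Pdk4 made up 86.5% ± 2.89 of the RPKM sum of the 4 kinases in floxed BAT and 72.4% ± 11.9 in floxed WV (SD, n = 5 each), where Pdk2 held 23.8% ± 11.5. In BATI4KO libraries Pdk4 held 82.7% ± 2.97 in BAT (SD, n = 6) and 60.8% ± 6.66 in WV (SD, n = 5).

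The phosphatases that switch pyruvate dehydrogenase back on differed between the tissues in opposite directions. Pdp1, whose enzyme calcium stimulates, was at 7.66, 7.76, 10.3, 6.83 and 7.54 CPM in the floxed BAT libraries and at 247, 213, 167, 166 and 195 CPM in the floxed WV libraries. It was 27.6-fold higher in WV, a log2 difference of -4.78 (SE 0.19, edgeR adjusted p = 1.05e-14). Pdp2, the other catalytic phosphatase, was at 111, 107, 86.5, 175 and 153 CPM in the same BAT libraries and at 9.93, 8.06, 18.6, 9.37 and 14.9 CPM in the same WV libraries. It was 11.5-fold higher in BAT, a log2 difference of 3.52 (SE 0.22, edgeR adjusted p = 1.24e-11).

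No library of either tissue crossed over for either phosphatase gene. Per length, Pdp2 made up 94.7% ± 2.21 of the RPKM sum of both genes in floxed BAT and Pdp1 made up 92.8% ± 3.14 in floxed WV (SD, n = 5 each). The sums of the 2 genes lay closer together, at 38.0 ± 10.1 RPKM in floxed BAT and 49.4 ± 7.40 RPKM in floxed WV (SD, n = 5 each), and overlapped. Among BATI4KO libraries the sums did not overlap, at 26.8 to 32.2 RPKM in BAT and 42.5 to 53.7 RPKM in WV. In BATI4KO mice the log2 differences were -4.75 for Pdp1 and 3.45 for Pdp2 (edgeR adjusted p = 2.82e-15 and 1.11e-11). The highest Pdp1 level in BAT was 11.3 CPM in KO_3, which also had the highest summed muscle level, at 3.82% of the WV median, and the part of muscle RNA in it was not tested.

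**Figure D3:**
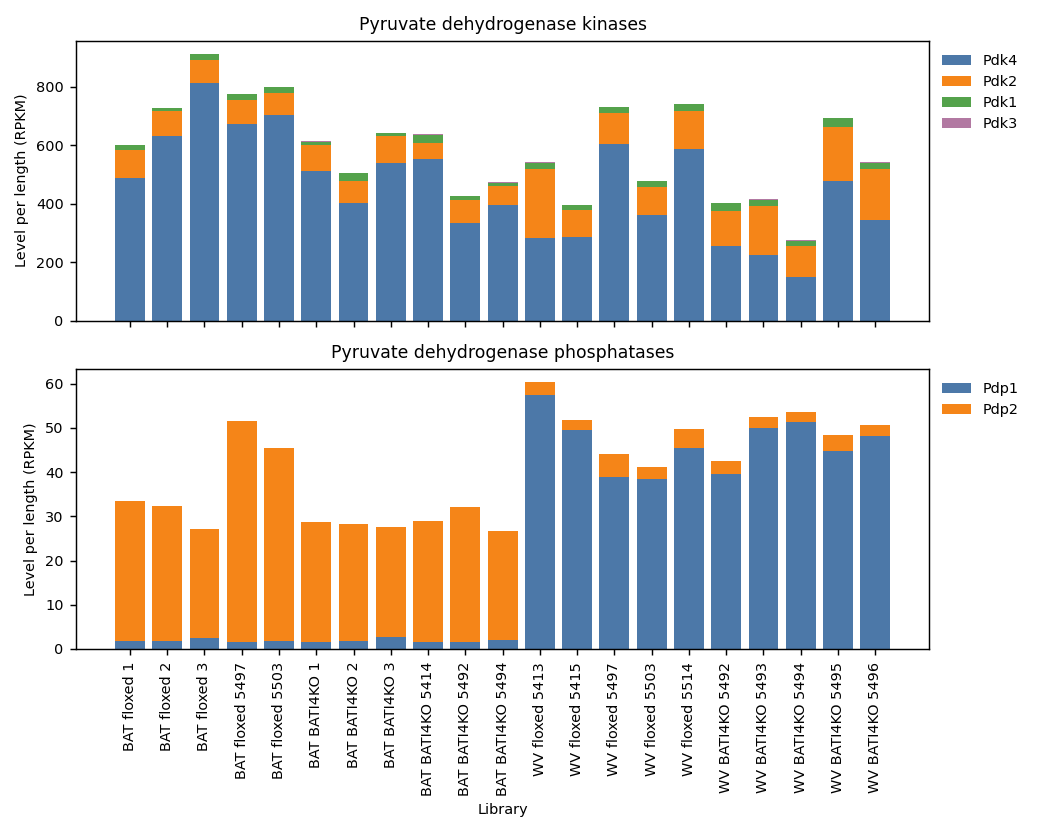
Levels per length (RPKM) of the 4 pyruvate dehydrogenase kinases (upper panel) and the 2 phosphatases (lower panel), stacked, in each of the 21 libraries. Pdk4 is the largest kinase part in every library, while Pdp2 makes up most of the phosphatase bar in all 11 BAT libraries and Pdp1 in all 10 WV libraries.

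The 3 genes counted here as malate-aspartate shuttle were all lower in BAT, by the most for Got1 and Got2. Mdh1, which also serves the shuttle, did not pass. Got1, the cytosolic aspartate aminotransferase, was at 13.5, 10.9, 7.26, 13.3 and 21.1 CPM in the floxed BAT libraries and at 646, 280, 380, 226 and 438 CPM in the floxed WV libraries. It was 26.3-fold higher in WV, a log2 difference of -4.72 (SE 0.47, edgeR adjusted p = 1.34e-08). Got2, the mitochondrial aminotransferase, was at 14.4, 22.1, 18.5, 22.7 and 15.5 CPM in the same BAT libraries and at 562, 244, 374, 241 and 417 CPM in the same WV libraries. Its level was 22.0-fold higher in WV, at -4.46 (SE 0.34, edgeR adjusted p = 2.37e-10), and neither gene overlapped between the tissues.

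Slc25a11, the carrier that exchanges oxoglutarate for malate, was at 130, 113, 111, 131 and 171 CPM in floxed BAT and at 510, 239, 282, 244 and 351 CPM in floxed WV, in the same order of libraries. Its level was lower in BAT, at -1.05 without overlap (SE 0.23, edgeR adjusted p = 0.000507), but at -0.31 it did not pass with library totals alone as the scale (edgeR adjusted p = 0.202). In BATI4KO mice Got1, Got2 and Slc25a11 differed by -4.69, -4.46 and -1.10 (edgeR adjusted p = 6.22e-09, 9.84e-11 and 9.23e-05). There too Slc25a11 did not pass with library totals alone, at -0.17 (edgeR adjusted p = 0.423). Cs exceeded Got2 per length 75.5 ± 25.2 times in floxed BAT and 1.91 ± 0.161 times in floxed WV (SD, n = 5 each). Exons of Got2 overlap Gm45760 and those of Slc25a11 overlap Rnf167 on the other strand, as those of Mdh1 and Pdha1 do Wdpcp and Map3k15.

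Within BAT, Got1 reached 22.3 CPM and Got2 32.4 CPM in KO_3, the highest of all 11 BAT libraries. That library also had the highest summed muscle level, 18499 CPM against 159 to 2978 CPM in the other BAT libraries, and the part of muscle RNA in these levels was not tested. In the floxed BAT library with the lowest summed muscle level, FX_5503 at 159 CPM, Got1 was at 21.1 CPM and Got2 at 15.5 CPM.

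**Figure D4:**
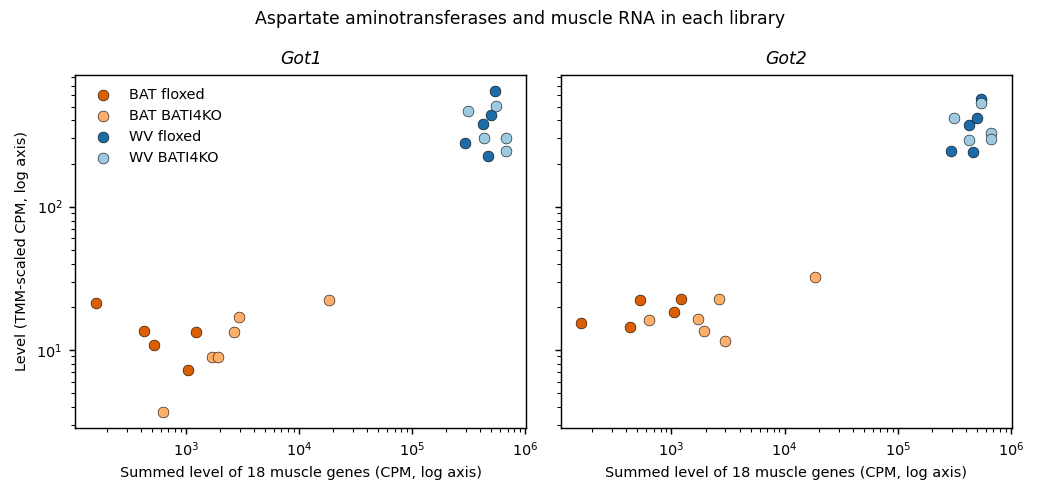
Level of Got1 (left) and Got2 (right) in each library against the summed level of 18 skeletal muscle genes, both in CPM on log axes, coloured by tissue and genotype. All 10 WV libraries lie at 226 CPM or above for both genes, and among BAT libraries KO_3, at a muscle sum of 18499 CPM, has the highest value of each.

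Other genes of these pathways, from a list of 25 found in the tables, differed in both directions: in floxed mice 12 were higher in BAT (34.1% of all genes), 7 lower (31.7%) and 6 did not pass (edgeR, adjusted p under 0.05), with a median log2 difference of 0.55. In BATI4KO mice 11 were higher (37.4%) and 7 lower (33.1%). Of the succinate dehydrogenase subunits, Sdha and Sdhd were higher in BAT, by 0.89 and 0.93 (edgeR adjusted p = 0.000987 and 0.000305), and Sdhb and Sdhc, at 0.38 and 0.36, did not pass. Slc25a12, the aspartate-glutamate carrier that completes the shuttle, was at 4.62 ± 1.24 CPM in floxed BAT and 640 ± 189 CPM in floxed WV (SD, n = 5 each), that is -7.38 on the log2 scale (edgeR adjusted p = 4.46e-11). Its relative Slc25a13 was lower in BAT, at -1.63 (edgeR adjusted p = 0.029), but rare. The mean of Slc25a13 was 0.335 CPM in floxed BAT and 1.08 CPM in floxed WV.

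Genes that export citrate for fat synthesis were higher in BAT. Slc25a1, the mitochondrial citrate carrier, was at 167 ± 88.7 CPM in floxed BAT and 2.50 ± 1.16 CPM in floxed WV (SD, n = 5 each), and Acly, which splits citrate to acetyl-CoA in the cytosol, at 516 ± 223 CPM and 18.7 ± 5.88 CPM. Their log2 differences were 6.42 and 5.09 (edgeR adjusted p = 7.77e-13 and 5.21e-10). Pck1, which makes phosphoenolpyruvate from oxaloacetate and feeds glycerol synthesis in fat, differed by 9.67 (edgeR adjusted p = 4.03e-10). Ldha, the lactate dehydrogenase subunit typical of glycolytic muscle, was lower in BAT, at -1.91 (edgeR adjusted p = 1.99e-07), and Ldhb, the subunit typical of heart, was higher, at 1.61. Malic enzymes split, with the mitochondrial Me2 at 1.29 and Me3 at -0.76, and the glutamate dehydrogenase gene Glud1 was at 0.55. Also higher in BAT were the dicarboxylate carrier Slc25a10 at 1.90, the mitochondrial Pck2 at 1.94 and the lipoate transferase gene Lipt1 at 1.07. Lower were Lipt2 at -0.70 and Ogdhl, a relative of Ogdh, at -3.33. The pyruvate carrier genes, listed as Brp44l and Brp44, did not pass at 0.58 and 0.41, nor did Lias at 0.18 and Me1 at 0.26. These single values are of floxed mice. In BATI4KO mice Brp44 passed, at 0.49 (edgeR adjusted p = 0.0342). Ldhb and Glud1 did not pass there, at 1.10 and 0.31 (edgeR adjusted p = 0.0597 and 0.103). Of 14 regulators of energy metabolism, 7 were higher in floxed BAT (34.1% of all genes) and 4 lower (31.7%), among them Ppargc1a, a coactivator of mitochondrial genes, at 1.5 (edgeR adjusted p = 0.000213), Ppara, a receptor for fatty acids, at 3.10 (edgeR adjusted p = 5.58e-06), and Tfam, the factor of mitochondrial DNA, at -0.89 (edgeR adjusted p = 1.18e-07).

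Between the genotypes in BAT, no gene of the 30 passed the test. The count was 0 of 30 by edgeR, against 0.0436% of the 16051 genes tested, and 0 by limma voom. DESeq2 called 3 of the 30 lower, as given below, and 372 genes over all genes. At an unadjusted p under 0.05, 7 of 30 were lower (7.24% of all genes) and 0 higher (7.5%). Of the 30 log2 differences 26 were below 0, against 51.2% of all genes, and their median was -0.19, against -0.01 over all genes. The groups overlapped for all 30 genes, while 0.392% of all genes were lower and 0.573% higher without overlap. With library totals alone as the scale 20 of the 30 were below 0 (26% of all genes) and the median was -0.05, against 0.13 over all genes. The 30 values share their libraries, and FX_5503 had the highest level in BAT for 18 of 30 genes, a count not made over all genes.

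Pdp2 had the smallest p. It was at 111, 107, 86.5, 175 and 153 CPM in the floxed BAT libraries and at 94.4, 92.5, 87.4, 95.6, 107 and 86.2 CPM in the BATI4KO libraries. The 2 long-tag floxed libraries were highest and the lowest floxed library lay within the BATI4KO range, at a log2 difference of -0.43 (SE 0.12, edgeR adjusted p = 0.191). Within the short-number libraries it differed by -0.15 and within the long-tag libraries by -0.75 (edgeR adjusted p = 0.751 and 0.132). DESeq2 gave -0.44 (adjusted p = 0.0489).

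Pdk4 was at 1768, 1394, 1860, 1904, 1158 and 1360 CPM in the BATI4KO libraries, against 1689 to 2805 CPM in floxed BAT. Only FX_1 lay within the BATI4KO range, and the log2 difference was -0.54 (SE 0.16, edgeR adjusted p = 0.193), with -0.41 in short-number and -0.68 in long-tag libraries (edgeR adjusted p = 0.674 and 0.236). DESeq2 gave -0.55 (adjusted p = 0.0374). The RPKM sum of the 4 kinases was 762 ± 113 in floxed BAT (SD, n = 5) and 549 ± 92.6 in BATI4KO BAT (SD, n = 6).

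Idh3a was at 1475, 1213, 1325, 1321 and 1673 CPM in the floxed BAT libraries and at 1147, 988, 1070, 1186, 1320 and 1247 CPM in the BATI4KO libraries. The groups overlapped slightly, at -0.29 (SE 0.10, edgeR adjusted p = 0.208), with -0.32 and -0.24 within short numbers and long tags, and DESeq2 gave -0.30 (adjusted p = 0.0404). Pdhx was at 97.8, 65.5, 74.7, 120 and 161 CPM in floxed BAT and at 64.1, 69.6, 59.8, 125, 122 and 85.4 CPM in BATI4KO BAT. In both groups the long-tag libraries were highest, with a difference of -0.32 (SE 0.13, edgeR adjusted p = 0.275). Suclg1 was at 664, 570, 599, 572 and 759 CPM in floxed BAT and at 455, 455, 468, 699, 616 and 605 CPM in BATI4KO BAT. Its short-number BATI4KO libraries were lowest, and it differed by -0.25 (SE 0.10, edgeR adjusted p = 0.284), but by -0.41 in short-number and -0.04 in long-tag libraries. Sucla2 and Ogdh, at -0.26 and -0.31 (edgeR adjusted p = 0.287 and 0.31), complete the 7 with an unadjusted p under 0.05.

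None of the other genes had an unadjusted p under 0.05. Cs was at 1410, 1284, 1380, 1614, 1660 and 1439 CPM in BATI4KO BAT, at -0.16 (SE 0.10, edgeR adjusted p = 0.504), and Pcx was at -0.09 (SE 0.10, edgeR adjusted p = 0.67). Pdk2 and Pdp1 were at -0.12 and 0.06 (edgeR adjusted p = 0.611 and 0.895). The largest positive difference was that of Aco1, at 0.18 (SE 0.09, edgeR adjusted p = 0.35). Of the 18 skeletal muscle genes 17 were higher in BATI4KO BAT at an unadjusted p under 0.05 and 0 passed (edgeR). With a muscle score as covariate the median of the 30 genes was -0.13 and Pdk4 was at -0.69 (edgeR adjusted p = 0.571), while Pdhx was at -0.16. With KO_3 left out as well the median was -0.12, Pdk4 was at -0.68, and 1 of the 30 genes had an unadjusted p under 0.05 (4.93% of all genes). The summed level of 12 brown adipocyte genes, none at 0, was 3607 to 9399 CPM in floxed and 2746 to 6117 CPM in BATI4KO BAT, with 9 of 12 log2 differences below 0 and 0 passing (edgeR, with 1 higher and 3 lower at an unadjusted p under 0.05), and its part in the lower values was not tested. For 10 genes of adipocytes in general the sum was 11302 to 18448 CPM in floxed and 10606 to 14313 CPM in BATI4KO BAT, with 8 of 10 log2 differences below 0, 4 lower at an unadjusted p under 0.05 and 0 passing (edgeR). The summed level of 8 lymphocyte genes did not overlap, at 4.53 to 6.38 CPM in floxed and 6.78 to 19.8 CPM in BATI4KO BAT. Of the 7 tested, 7 log2 differences were above 0, 3 had an unadjusted p under 0.05 and 0 passed (edgeR), and the part of both lists in the lower values was not tested. Of the 24 pathway genes of the other list tested in BAT, 0 passed by edgeR, 2 had an unadjusted p under 0.05, 18 were below 0, and the median was -0.16. Of the 14 regulators 0 passed and 3 had an unadjusted p under 0.05 (edgeR).

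**Figure D5:**
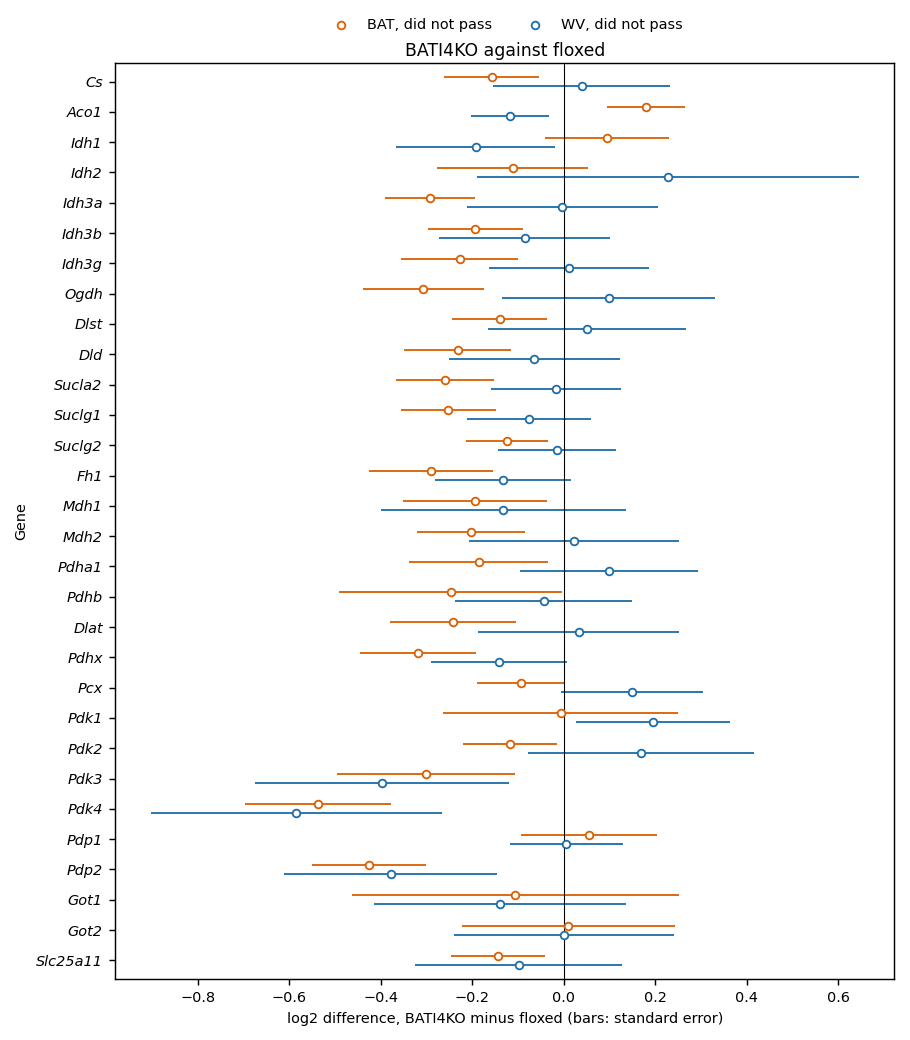
Log2 difference of each gene between genotypes (BATI4KO minus floxed, with the standard error as bars) in BAT and in WV; open points mark that no gene passed edgeR's test at an adjusted p of 0.05. In BAT 26 of 30 points lie below 0, and in both tissues Pdk4 lies lowest, at -0.54 and -0.58.

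In WV of BATI4KO mice, a muscle outside the fat in which Irf4 is deleted, none of the 30 genes passed either. The count was 0 by edgeR (0.00688% of the 14529 genes tested), 0 by DESeq2 and 0 by limma voom, and 0 had an unadjusted p under 0.05, against 8.91% of all genes. The median log2 difference was -0.02, against -0.01 over all genes, with 18 of 30 below 0 (51.5% of all genes, and 24 of 30, against 72.2% of all genes, with library totals alone as the scale), and all 30 genes overlapped between the groups (0.695% of all genes were lower and 0.475% higher without overlap). Pdk4 had the smallest p, at 886, 773, 509, 1654 and 1187 CPM in the BATI4KO libraries, against 975, 989, 2082, 1248 and 2025 CPM in the floxed libraries. On the log2 scale it differed by -0.58 (SE 0.32, edgeR adjusted p = 0.634). Pdp2 was at 9.90, 8.67, 7.74, 13.1 and 8.45 CPM in BATI4KO WV, against 9.93, 8.06, 18.6, 9.37 and 14.9 CPM in floxed WV, and differed by -0.38 (SE 0.23, edgeR adjusted p = 0.675).

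Both values changed sign without 3 floxed libraries. In WV, FX_5497, FX_5503 and FX_5514 stood apart by their level of Rmrp, the RNA that also moved with title style in BAT, at 142 to 185 CPM against 16.4 to 30.7 CPM in the other 7, and of Rpph1, the RNA of RNase P. The 7 others are FX_5413, FX_5415 and all BATI4KO libraries, a choice made after seeing the data. Among them the difference was 0.01 for Pdk4 and 0.08 for Pdp2 (edgeR adjusted p = 0.999 for each). With both RNAs entered as a covariate it was 0.21 and 0.17. All 3 libraries with high levels of these RNAs were floxed, so their part and that of genotype cannot be fully told apart. By smallest p over all WV libraries, Pdk3, Aco1 and Pdk1 followed Pdk4 and Pdp2, at -0.40, -0.12 and 0.20 (edgeR adjusted p = 0.708, 0.713 and 0.763). Pdk3 was at 0.881, 1.71, 1.53, 1.34 and 1.32 CPM in the floxed libraries and at 1.34, 0.686, 1.30, 0.708 and 1.21 CPM in the BATI4KO libraries. For these genes the ranges overlapped broadly. Aco1 was at 32.3, 35.2, 29.9, 36.0 and 33.1 CPM in BATI4KO WV, against 31.1 to 38.5 CPM in floxed WV. Pdk1 was at 162, 110, 152, 129 and 179 CPM in floxed and at 199, 156, 130, 226 and 144 CPM in BATI4KO WV.

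Cs, Pcx, Pdk2 and Pdp1 were at 0.04, 0.15, 0.17 and 0.01 in WV (edgeR adjusted p = 0.971, 0.815, 0.886 and 0.993). Idh2 was uneven among BATI4KO WV libraries, at 397 CPM in KO_5492, 426 CPM in KO_5495 and 119 to 131 CPM in the other 3. Those libraries also had the highest summed level of 10 slow-fibre genes, none at 0, at 6941 and 7265 CPM, against 817 to 1114 CPM in the other BATI4KO and 481 to 4648 CPM in the floxed libraries. The log2 difference of Idh2 was 0.23 (SE 0.42, edgeR adjusted p = 0.911), and with a slow-fibre score as covariate it was -0.26 (SE 0.13, edgeR adjusted p = 0.488). With that covariate 4 of the 30 genes had an unadjusted p under 0.05 (10.8% of all genes) and 0 passed. Of the 25 other pathway genes 0 passed in WV and 1 had an unadjusted p under 0.05 (edgeR), and of the 14 regulators 0 and 2. The highest WV level was in FX_5413 for 20 of the 30 genes and the lowest in FX_5415 for 16. Like counts were not made over all genes, so these may not be particular to the 30.

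The difference of the genotype effect between the tissues was tested directly. By edgeR 0 of 30 genes passed (0.018% of all genes), as by DESeq2 and limma voom, and 1 had an unadjusted p under 0.05 (10.6% of all genes). That gene was Aco1, at 0.28 (SE 0.13, edgeR adjusted p = 0.441), from 0.18 in BAT and -0.12 in WV. The median of the 30 differences was -0.19, against 0.02 over all genes, with 23 of 30 below 0 (48.2% of all genes), but with library totals alone as the scale 10 were below 0 (18.1% of all genes) and the median was 0.03, against 0.28 over all genes.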

How the data were processed

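Whole-tissue RNA was cleaned on columns and rRNA-depleted, and cDNA primed with random hexamers was tagmented, per the labels' protocols. The authors deposited raw read counts per gene model in 1 table per tissue, with symbol and model length, per the file headers. The submitters' processing notes name TopHat2 2.0.14 with build mm9, featureCounts 1.4.6 and edgeR, besides SAMtools 0.1.19, Picard 2.2.4 and bcl2fastq 2.17.1.14. The strand setting is not given in the sources used here. Near-identical copies and overlapping genes may therefore share reads.

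In R 4.3.3, edgeR 4.0.16 filtered genes with filterByExpr, scaled libraries by TMM and ran its quasi-likelihood F test; p-values were Benjamini-Hochberg adjusted over all genes and called under 0.05. BAT was fitted with title style as covariate, WV without, and the tissue contrasts and the difference of genotype effects over all 21 libraries in 4 groups with title style. Standard errors are the log2 difference divided by the root of F. Scores are mean log2 CPM with a prior count of 2. DESeq2 1.42.0 and limma voom 3.58.1, other scalings, filters, covariates and left-out libraries were alternatives, and the fits were tested on simulated data. Of genes with simulated 1.5-fold changes, 37% were called between genotypes in BAT, 26.1% in WV and 15.7% for the difference of effects. At 2-fold these shares were 79.3%, 86.5% and 60%, so small genotype differences can be missed. Replicates were compared by chi-square per gene (smallest 30.4), so none was within sampling noise. Counts carry no molecular identifiers. Gene overlaps came from GENCODE, promoters from RefSeq.

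The genes and lists were chosen with earlier results of these data known. Single values of some genes of the wider pathway list are not reported here. Genes shown by library are those passing with the 5 largest and 5 smallest floxed tissue differences, those with the 5 smallest p in each genotype comparison, and Cs, Pcx, Pdk4, Pdk2 and Pdp1; ranges stand for values given elsewhere, and in BATI4KO groups for tissue differences.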

Additional observations from a re-analysis of the deposited data

Results flagged for a closer look

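In 120 sets of libraries (30 genes in 4 groups) 2 single libraries lay far from the rest of their group. That is fewer than chance alone gives, which is about 1 in 20 sets. Pdp1 was at 10.3 CPM in FX_3 of BAT, against 6.83 to 7.76 CPM in the other 4 floxed BAT libraries. Pdk2 was at 532 CPM in FX_5413 of WV, against 209 to 292 CPM in the other 4 floxed WV libraries. FX_5413 also had the highest WV level for 20 of the 30 genes, a count not made over all genes, and the cause was not tested. No genotype effect was found to differ between the tissues for any of the 30 genes by the interaction term of edgeR.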

How the results depend on the processing

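With edgeR, 0 genes passed between genotypes in BAT and in WV and 0 for the difference between tissues under every scaling, filter, covariate and left-out library tried, and DESeq2 called 3 in BAT (Idh3a, Pdk4 and Pdp2) and 0 elsewhere. Over all genes edgeR called 7 in BAT, 1 in WV and 3 for the difference, and DESeq2 372, 111 and 55. With library totals alone, the median BAT minus WV difference was 1.61 in floxed and 1.62 in BATI4KO mice, and 4 differences turned positive and passed: Mdh2 at 0.73 (floxed) and 0.70 (BATI4KO), and Mdh1 at 0.59 and Pdk1 at 0.55 (BATI4KO). Without the title style term, which sets BAT at the level of the long tags, the floxed median was 0.59. In BAT the median of short-number minus long-tag libraries was -0.40 over the 30 genes, against 0.03 over all genes. The cause of the difference between the styles was not tested. Leaving out each library gave medians of -0.27 to -0.14 in BAT, -0.12 to 0.10 in WV, and -0.28 to -0.10 for the difference of effects. Between tissues the medians were 0.72 to 1.04 in floxed and 0.55 to 0.82 in BATI4KO mice. In these refits 23 to 23 and 22 to 25 genes passed between tissues and 0 to 0 elsewhere. The main fits called 65.8% and 70.5% of all genes between tissues, and the shares in the refits are not given here. Between genotypes in BAT, short-number libraries of the same number had correlations of 0.139, -0.123 and 0.069. Pairs of different numbers ran from -0.233 to 0.166. With 3 such libraries per genotype, these values cannot settle whether the numbers pair the genotypes. Whether a tag found in both tissues is 1 mouse is not given, and with 2 such libraries per group the correlations (0.0646 in floxed and 0.00891 in BATI4KO mice) cannot settle it. With a replicate block, 0 genes passed among short-number BAT libraries (median -0.24, against -0.23 without the block). Between tissues over 8 libraries, 22 passed in floxed and 20 in BATI4KO mice, and the shares of all genes are not given here. The medians were 1.01 and 0.67, against 0.08 and 0.10 over all genes. Each symbol has 1 model, so summing models changed nothing. At 0.686 to 2.15 CPM Pdk3 was the gene with the lowest level per library and so the one most limited by depth.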
